A study of Mus musculus with 8 samples.

Results

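The 9 genes described here encode chemokine receptors of myeloid cells, and they were the rows of the deposited count table whose symbol was Ccr1, Ccr2, Ccr3, Ccr7, Cxcr2, Cxcr3, Cxcr4, Cx3cr1 or Ccrl2, of 24062 genes in all. RNA-seq was performed on immature myeloid cells (IMCs) that were expanded ex vivo from the bone marrow of 2-month-old C57BL/6 mice in 3 days of culture with M-CSF (40 ng per mL), the growth factor of the monocyte and macrophage lineage. There were 4 groups of 2 libraries. PARP1 WT cells were PARP1 flox/flox and PARP1CKO cells were PARP1 flox/flox with lysozyme-Cre. PARP2 WT cells were PARP2 flox/flox and PARP2CKO cells were PARP2 flox/flox with lysozyme-Cre. All 4 groups therefore carried a floxed allele, and the WT littermates lacked the Cre, so that the presence of Cre and the deletion cannot be told apart. Lysozyme-Cre is driven by a gene that myeloid cells use, which directs recombination to that lineage. No source used here describes a sort of the sequenced cultures. The design calls the 2 libraries of a group biological duplicates, and the sources do not say whether a library pooled animals. PARP1 and PARP2 are enzymes that attach ADP-ribose to proteins and act in DNA repair and transcription.

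Chemokine receptors are seven-pass membrane proteins that couple to inhibitory G proteins and steer cells along gradients of chemokines. They are grouped by the cysteine pattern of their ligands into CC, CXC and CX3C receptors, and most bind several ligands. In bone marrow, Cxcr4 retains myeloid cells near the stromal cells that secrete its ligand, Cxcr2 drives the exit of neutrophils, and Ccr2 drives the exit of inflammatory monocytes.

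In the GENCODE M21 annotation of GRCm38 (mm10), 5 of the 9 genes lay on chromosome 9. Ccr1 (chr9:123962124-123968692, minus strand), Ccr3 (chr9:124021972-124031689, plus strand) and Ccr2 (chr9:124101950-124113557, plus strand) stood close together. Ccrl2 (chr9:111054486-111057519, minus strand) and Cx3cr1 (chr9:119901616-120069879, minus strand) lay apart from them. The other genes were Cxcr2 (chr1:74153989-74161246, plus strand), Cxcr4 (chr1:128588199-128592293, minus strand), Ccr7 (chr11:99144196-99155077, minus strand) and Cxcr3 (chrX:101731535-101734269, minus strand). Exons of Cx3cr1 overlapped the span of Wdr48 on the opposite strand, and the sources do not say whether counting used the strand, so reads of these genes may not have been told apart. Of all stretches of 75 bases in the transcripts, the length of a read, 1.16% in Ccr2, 1.81% in Cxcr2 and 0.113% in Cx3cr1 also occurred in transcripts of another gene. The other 6 receptors had no such stretch.

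The promoters of the 3 receptors with the smallest p-values in a knockout comparison, Ccr1, Ccr2 and Cxcr2, are shown with that of Cxcr4, the receptor with the most RNA per exon length. Each RefSeq window of GRCm38.p6 runs from 250 bases before the start site to 50 bases after it and is written 5′ to 3′ on the strand of the gene. Capitals mark matches, on either strand, to GAGGAA (the core bound by the myeloid factor PU.1), to the TCF motif (CTTTG followed by AA, AT, TA or TT) or to TATAAA (the TATA box). A match is a description of letters and not of binding.

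Ccr1 promoter, chr9:123968643-123968942, minus strand: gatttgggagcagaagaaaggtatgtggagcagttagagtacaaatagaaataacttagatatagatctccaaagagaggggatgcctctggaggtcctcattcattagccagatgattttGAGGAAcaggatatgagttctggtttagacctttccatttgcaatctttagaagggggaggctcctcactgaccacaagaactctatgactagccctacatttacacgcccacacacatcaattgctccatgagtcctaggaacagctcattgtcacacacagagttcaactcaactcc

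Ccr2 promoter, chr9:124101933-124102232, plus strand: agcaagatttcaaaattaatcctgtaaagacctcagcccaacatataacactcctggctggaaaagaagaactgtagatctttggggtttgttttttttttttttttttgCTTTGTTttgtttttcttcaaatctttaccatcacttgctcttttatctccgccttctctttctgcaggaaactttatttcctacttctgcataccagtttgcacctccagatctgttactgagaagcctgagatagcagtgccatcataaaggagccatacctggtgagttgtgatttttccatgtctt

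Cxcr2 promoter, chr1:74153744-74154043, plus strand: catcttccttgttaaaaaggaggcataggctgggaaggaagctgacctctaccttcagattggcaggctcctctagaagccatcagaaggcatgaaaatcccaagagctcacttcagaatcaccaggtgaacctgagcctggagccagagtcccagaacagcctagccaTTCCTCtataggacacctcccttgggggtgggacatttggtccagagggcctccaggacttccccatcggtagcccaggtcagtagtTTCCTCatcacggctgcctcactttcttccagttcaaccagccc

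Cxcr4 promoter, chr1:128592250-128592549, minus strand: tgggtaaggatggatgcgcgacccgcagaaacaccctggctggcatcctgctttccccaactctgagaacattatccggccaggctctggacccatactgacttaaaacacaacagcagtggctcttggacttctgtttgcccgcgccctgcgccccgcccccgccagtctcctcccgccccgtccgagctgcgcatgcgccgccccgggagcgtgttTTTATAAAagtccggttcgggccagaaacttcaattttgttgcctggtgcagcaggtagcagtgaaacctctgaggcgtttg

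The windows of Ccr1 and Ccr2 each held 1 CG dinucleotide and that of Cxcr2 held 2, whereas that of Cxcr4 held 20, against a median of 7 over 32851 mouse promoter windows of this length. GAGGAA occurred once in the Ccr1 window, 129 bases before the start site, and at 2 places in the Cxcr2 window, 81 bases before and 6 bases after the start site on the opposite strand. Of all windows, 28.3% held GAGGAA. The Ccr2 window held 1 TCF match 140 bases before its start, a motif found in 16.9% of all windows. In the Cxcr4 window 2 overlapping TATAAA matches, 1 on each strand, began 32 and 30 bases before the start, and 13.6% of all windows held that motif. A motif of C/EBP factors, TTGCNNAA, present in 10.8% of all windows, was in none of the windows of the 8 receptors that had an entry. No window for Ccr7 was used. Of the windows not shown, those of Ccr3 and Cxcr3 held GAGGAA, that of Cxcr3 also held a TCF match, and those of Ccrl2 and Cx3cr1 held none of the motifs searched.

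The libraries held from 37852450 to 61845125 counts, and 13197 genes passed edgeR's filter on low counts and were tested. All 9 receptors passed it. Parp1 was between 59.1 and 63.2 CPM (counts scaled to a common library total) in PARP1CKO and between 202 and 211 CPM in PARP1 WT. Parp2 was between 25.6 and 25.7 CPM in PARP2CKO and between 48.2 and 48.3 CPM in PARP2 WT, as the labels state for both knockouts. Of the genes that define the labelled cell type, Itgam (the CD11b chain) was between 881 and 1035 CPM and Ly6c2 between 53.9 and 72.2 CPM in all libraries, Ly6c1 was at most 1.02 CPM, and Ly6g was not analysed here. Replicates correlated at 0.995 to 0.996 over genes.

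Cxcr4, the receptor for Cxcl12, had the highest level per exon length in every group, followed by Ccr1 and Ccr2. Compared as RPKM (CPM per kilobase of exon), Cxcr4 was between 24.2 and 29.5 in all 8 libraries. Ccr1 was between 13.9 and 20.9 RPKM and Ccr2 between 7.20 and 10.9 RPKM. The ranges of these 3 receptors did not overlap each other, nor did that of Ccr2 overlap those of the receptors below it except Cxcr2.

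Cxcr2 had rank 4 in PARP1 WT (6.50 ± 0.0127 RPKM, SD, n = 2) and Cx3cr1 had rank 5 (4.27 ± 0.153 RPKM). In PARP2CKO their order was turned, with 3.47 ± 0.0588 RPKM for Cxcr2 and 3.95 ± 0.872 RPKM for Cx3cr1, a difference smaller than the spread of Cx3cr1. Cxcr3 was between 2.81 and 4.10 RPKM and Ccrl2 between 1.44 and 3.00 RPKM. Ccr3 and Ccr7 had the lowest levels, at most 0.954 RPKM in any library, and Ccr7 was above Ccr3 in both PARP1 groups and below it in both PARP2 groups. In the PARP1 groups the difference between Ccr7 and Ccr3 was smaller than the spread of Ccr7. Ranks within a group were the same with the length of the longest transcript.

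**Figure D1:**
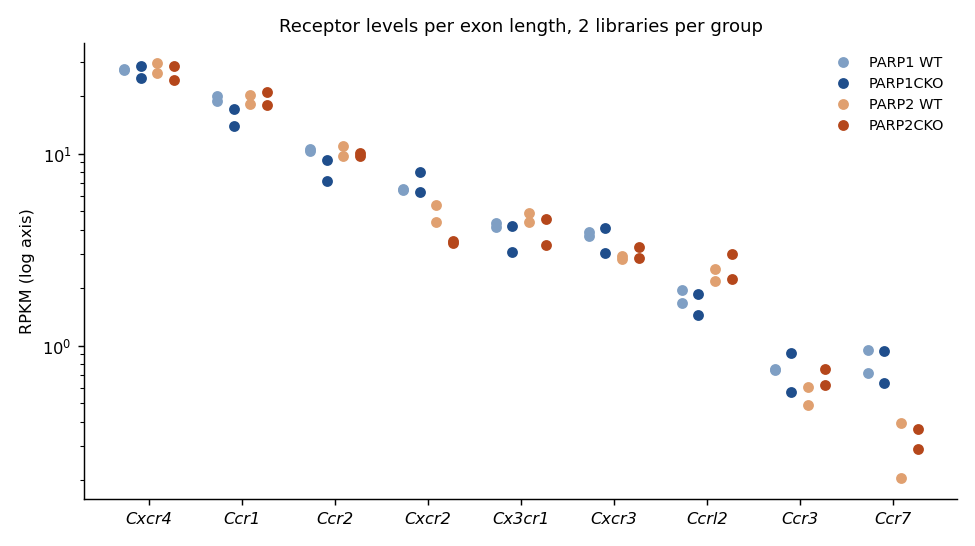
RPKM on a log axis for each receptor, ordered by its mean over the 8 libraries, with 1 point per library coloured by group. Cxcr4, between 24.2 and 29.5 RPKM, stands above the others, and Ccr7 is lower in the PARP2 groups than in the PARP1 groups.

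The 9 receptors differed in how far they varied. The highest library was 4.67 times the lowest for Ccr7, 2.35 times for Cxcr2 and 2.08 times for Ccrl2. That ratio was 1.22 for Cxcr4, the lowest of the 9, and between 1.46 and 1.85 for the other 5.

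**Figure D2:**
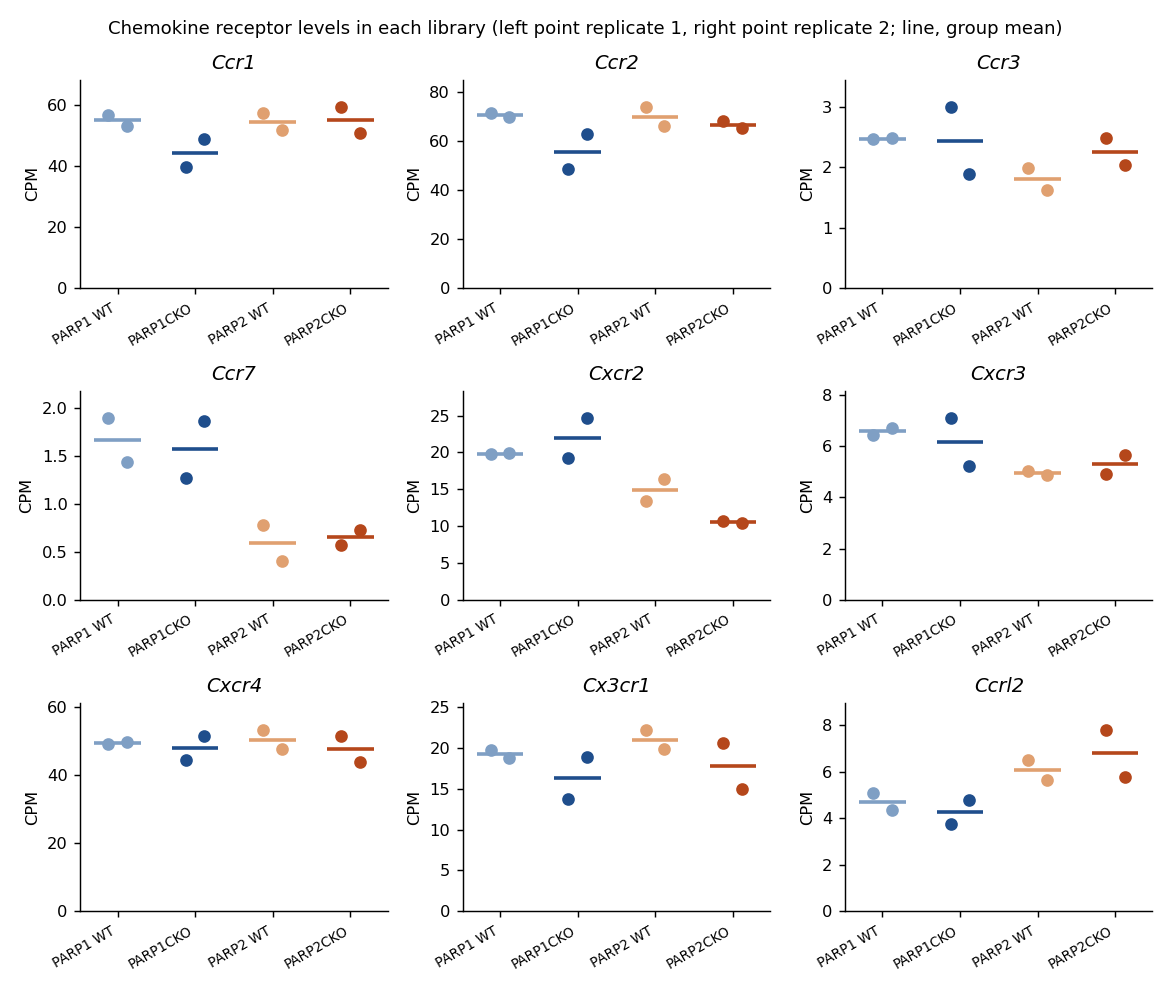
CPM of each receptor in each library, with the 2 replicates of a group as points (replicate 1 on the left) and their mean as a line; each vertical axis starts at 0. Ccr1 and Ccr2 are lower in both PARP1CKO libraries than in the other groups, and Cxcr2 is lowest in PARP2CKO.

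The comparison of PARP1CKO with PARP1 WT asked which receptor genes changed in IMCs without PARP1. None of the 9 receptors had a Benjamini-Hochberg adjusted p under 0.05 in the quasi-likelihood test of edgeR, where 0.106% of all genes tested did. At an unadjusted p under 0.05 there were 2, Ccr1 and Ccr2, both lower, beside 11.3% of all genes. These 2 were also the receptors whose groups did not overlap, as in 41.2% of all genes. The median log2 fold change of the 9 was -0.09, against 0.01 over all genes tested, with 1 higher and 8 lower.

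Ccr1, a receptor for Ccl3, Ccl5, Ccl6, Ccl7 and Ccl9, had 56.5 and 53.1 CPM in PARP1 WT and 39.5 and 48.6 CPM in PARP1CKO. Its log2 fold change was -0.31 (SE 0.106, n = 2 per group, unadjusted p = 0.0158 and adjusted p = 0.335 in edgeR's quasi-likelihood test). Both PARP1CKO libraries were below both PARP1 WT libraries, and replicate 1 lay further down. The log2 fold change was -0.17 without PARP1CKO replicate 1 and -0.47 without replicate 2.

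Ccr2, the receptor for Ccl2, Ccl7 and Ccl12, had 71.3 and 69.8 CPM in PARP1 WT and 48.7 and 62.8 CPM in PARP1CKO. Its log2 fold change was -0.34 (SE 0.103, unadjusted p = 0.00902, adjusted p = 0.289 in edgeR's quasi-likelihood test). The 2 PARP1CKO libraries differed more from each other than replicate 2 did from PARP1 WT, and the value was -0.17 without PARP1CKO replicate 1 and -0.54 without replicate 2 (adjusted p = 0.0531 in edgeR's test). The study, which set a false discovery rate under 0.05, lists Ccr2 among PARP1 regulated genes chosen on these samples. Ccr2 did not pass 0.05 in the test used here, and that choice is not independent evidence of its direction.

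PARP1CKO replicate 1 had the lowest level of the 8 libraries for Ccr1, Ccr2, Cx3cr1 and Ccrl2 and the highest level for Ccr3 and Cxcr3. The same library had the lowest summed level of the 9 neutrophil markers, 2716 CPM, beside 3431 CPM in PARP1CKO replicate 2 and 3054 and 3297 CPM in PARP1 WT. Of the 5 monocyte markers, 4 had lower values in PARP1CKO, as Ccr1 and Ccr2 did, and 1, Csf1r, had a log2 fold change of 0.0046, with none called, none at 0 and none with groups that did not overlap. PARP1CKO replicate 1 was the lowest of the 8 libraries for Ly6c2 (53.9 CPM), F13a1 (68.4 CPM) and Chil3 (176 CPM, beside 224 CPM in replicate 2 and 213 and 254 CPM in PARP1 WT). The sum of the 5, at 1529 and 1539 CPM in PARP1CKO and 1562 and 1594 CPM in PARP1 WT, differed little, and most of it was Csf1r, between 1167 and 1226 CPM in these 4 libraries. Of the 7 dendritic cell markers 5 had lower values in PARP1CKO, and for 4, Itgax, Zbtb46, Cd209a and Xcr1, the groups did not overlap, as in 41.2% of all genes, with none called in edgeR's test. The dendritic cell sum was 118 and 115 CPM in PARP1 WT and 93.2 and 129 CPM in PARP1CKO, and replicate 1 was again the lowest of the 8. The part of these cells in the receptor values was not tested, and fewer cells of a type and less RNA per cell cannot be told apart in bulk RNA.

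Cx3cr1, the receptor for fractalkine and a marker of patrolling monocytes and tissue macrophages, had 19.7 and 18.7 CPM in PARP1 WT and 13.8 and 18.9 CPM in PARP1CKO. The groups overlapped, and the log2 fold change was -0.24 (SE 0.168). Cxcr2, the receptor of neutrophils for Cxcl1, Cxcl2 and Cxcl5, had 19.8 and 19.9 CPM in PARP1 WT and 19.3 and 24.6 CPM in PARP1CKO, the only one of the 9 with a value above 0 (log2 fold change 0.14, SE 0.121). For Cxcr4 the 95% interval of the log2 fold change ran from -0.26 to 0.16, and for Ccr7 from -0.77 to 0.60.

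The comparison of PARP2CKO with PARP2 WT asked the same question for PARP2. None of the 9 passed the adjusted threshold in edgeR's quasi-likelihood test, beside 0.0530% of all genes, and 1 receptor, Cxcr2, had an unadjusted p under 0.05, beside 4.83%. The groups did not overlap for Cxcr2, which was lower, and for Ccr3, which was higher, as in 37.2% of all genes. The median log2 fold change of the 9 was 0.02, against -0.0014 over all genes tested, with 5 higher and 4 lower.

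Cxcr2 stood at 13.4 and 16.4 CPM in the PARP2 WT libraries and at 10.7 and 10.5 CPM in the PARP2CKO libraries. The log2 fold change was -0.49 (SE 0.126, 95% interval -0.78 to -0.21, unadjusted p = 0.00377, adjusted p = 0.721 in edgeR's quasi-likelihood test). It was between -0.63 and -0.34 when each of the 4 libraries was left out in turn. The study also lists Cxcr2 among PARP2 regulated genes chosen on these samples, which is not independent evidence.

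Markers of neutrophils, the cells that use Cxcr2 most, had lower values in the same comparison. Of the 9 neutrophil markers, 8 were lower and 6 had groups that did not overlap, all lower, as did 18.8% of all genes. Their sum was 3482 and 3245 CPM in the PARP2 WT libraries and 3212 and 2816 CPM in PARP2CKO, with none of the markers at 0. The widest gap was that of Retnlg, a late neutrophil marker (log2 fold change -0.61, SE 0.119). None of the 9 passed the adjusted threshold, and their part in the Cxcr2 value was not tested.

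Ccr3, the eotaxin receptor of eosinophils and basophils, stood at 1.99 and 1.61 CPM in the PARP2 WT libraries and at 2.48 and 2.03 CPM in the PARP2CKO libraries, from 84 to 148 counts. Its log2 fold change was 0.33 (SE 0.231), and the 95% interval of -0.20 to 0.85 included 0. It was between 0.17 and 0.49 with 1 of the 4 libraries left out. The 3 eosinophil markers in the table summed to 16.6 and 9.28 CPM in the PARP2 WT libraries and 8.70 and 9.80 CPM in PARP2CKO, and these sums overlapped. The 5 basophil and mast cell markers summed to 7.11 and 7.86 CPM in the PARP2 WT libraries and 5.41 and 6.86 CPM in PARP2CKO.

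Ccr1 and Ccr2 had close values in the PARP2 groups. Ccr1 stood at 57.2 and 51.5 CPM in the PARP2 WT libraries and at 59.2 and 50.6 CPM in the PARP2CKO libraries, and its log2 fold change was 0.02 (95% interval -0.22 to 0.25). Ccr2 stood at 74.0 and 66.1 CPM in the PARP2 WT libraries and at 68.2 and 65.3 CPM in the PARP2CKO libraries, and its log2 fold change was -0.07 (95% interval -0.30 to 0.16). Cx3cr1 stood at 22.2 and 19.9 CPM in the PARP2 WT libraries and at 20.6 and 15.0 CPM in the PARP2CKO libraries, which overlapped (log2 fold change -0.24, SE 0.163). Ccrl2, Ccr7, Cxcr3 and Cxcr4 overlapped as well, with log2 fold changes of 0.16, 0.11, 0.09 and -0.08.

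**Figure D3:**
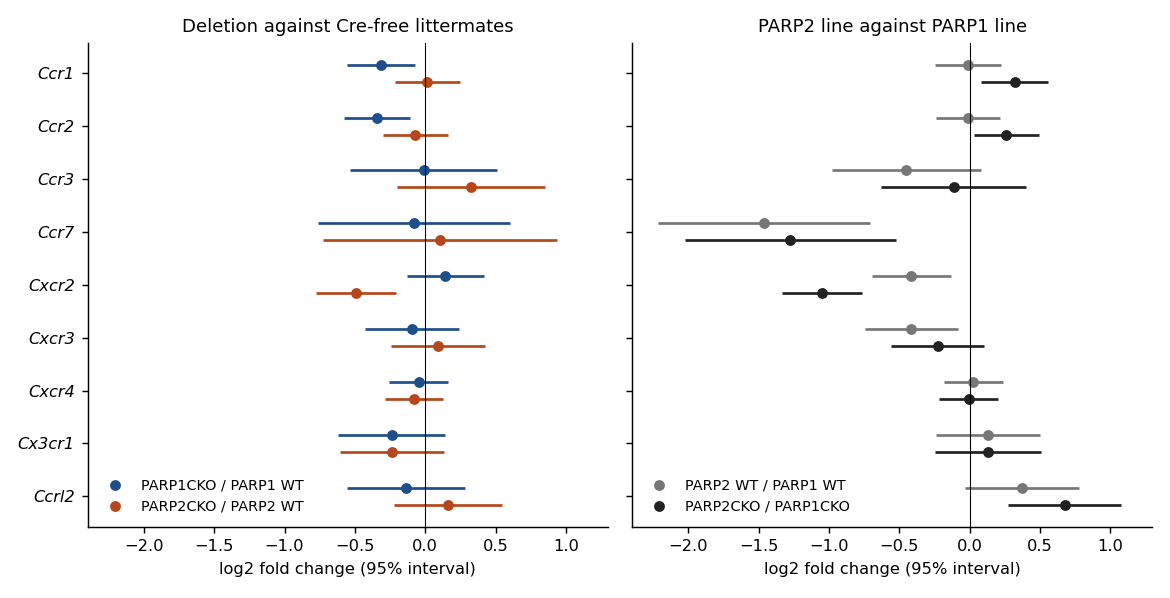
Log2 fold changes with 95% intervals from edgeR's quasi-likelihood fit for each receptor, on the left each knockout against its WT littermates and on the right the PARP2 line against the PARP1 line. On the left the intervals that leave out 0 are those of Ccr1 and Ccr2 for PARP1CKO and of Cxcr2 for PARP2CKO. On the right those of Ccr7 and Cxcr2 lie below 0 in both comparisons.

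The knockout effects were compared with each other in the same model. The difference, the PARP2CKO effect minus the PARP1CKO effect, passed the adjusted threshold for none of the 9 in edgeR's quasi-likelihood test, beside 0.0152% of all genes. It had an unadjusted p under 0.05 for 1, Cxcr2, beside 7.69%. For Cxcr2 it was -0.64 on the log2 scale (SE 0.175, unadjusted p = 0.00560, adjusted p = 0.531 in edgeR's test), with a log2 fold change of 0.14 in PARP1CKO and -0.49 in PARP2CKO. For Ccr1 it was 0.33 (SE 0.148, unadjusted p = 0.0522 in edgeR's test), and for Ccr2 it was 0.27 (SE 0.144), each with the lower value in PARP1CKO. Without PARP1CKO replicate 1 these differences were 0.19 and 0.10, and without replicate 2 they were 0.49 and 0.47. For Cx3cr1 the effects were -0.24 in both knockouts, and the 95% interval of their difference ran from -0.51 to 0.51. Each effect depended on single libraries, and with 1 left out it lay between -0.48 and -0.025 in PARP1CKO and between -0.49 and -0.033 in PARP2CKO.

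The WT groups of the lines were also compared, because each knockout was set against its own littermates. None of the 9 passed the adjusted threshold in edgeR's quasi-likelihood test, beside 3.16% of all genes, and 3, Ccr7, Cxcr2 and Cxcr3, had an unadjusted p under 0.05, beside 18.9%. All 3 were lower in PARP2 WT. The groups did not overlap for 6 receptors, as in 51.9% of all genes, with Cx3cr1 and Ccrl2 higher and Ccr3, Ccr7, Cxcr2 and Cxcr3 lower in PARP2 WT. The floxed gene, the breeding and the handling of a line cannot be told apart.

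Ccr7, which guides dendritic cells and lymphocytes to lymph nodes, had 73 and 71 counts in PARP1 WT (1.89 and 1.43 CPM) and 64 and 84 counts in PARP1CKO (1.27 and 1.86 CPM). It had 45 and 21 counts in PARP2 WT (0.778 and 0.404 CPM) and 34 and 35 in PARP2CKO (0.570 and 0.725 CPM). Every PARP2 library was below every PARP1 library. Between the WT groups the log2 fold change was -1.46 (SE 0.333, adjusted p = 0.0537 in edgeR's quasi-likelihood test), and with DESeq2 it passed the threshold (adjusted p = 0.0199). Over the planned fits on all libraries or on these 4 the adjusted p lay between 0.000906 and 0.0846, and without PARP2 WT replicate 2 the log2 fold change was -1.08.

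B cell markers differed between the lines in the direction of Ccr7. The 4 markers, Cd79a, Cd79b, Ms4a1 and Pax5, summed to between 22.0 and 30.7 CPM in the 4 libraries of the PARP1 line and to between 6.59 and 8.74 CPM in those of the PARP2 line. All 4 passed the adjusted threshold between the WT groups, beside 3.16% of all genes, lower in PARP2 WT, and none was at 0. The 7 dendritic cell markers summed to between 93.2 and 129 CPM over all libraries, and most of that sum was H2-Ab1 (62.5 to 88.1 CPM). Of the 7, 2 were higher and 5 lower in PARP2 WT, with a median log2 fold change of -0.32. The groups did not overlap for 1 higher and 4 lower markers, as in 51.9% of all genes, and none was called. Their part in the Ccr7 value was not tested.

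Cxcr3, the receptor of T and NK cells for Cxcl9 and Cxcl10, had 6.46 and 6.73 CPM in PARP1 WT and 5.05 and 4.86 CPM in PARP2 WT. Its log2 fold change was -0.41 (SE 0.147, adjusted p = 0.179 in edgeR's quasi-likelihood test). In the knockouts it had 7.10 and 5.24 CPM in PARP1CKO and 4.93 and 5.67 CPM in PARP2CKO, which overlapped. The 7 T and NK cell markers together were between 2.12 and 3.31 CPM in every library, below the level of Cxcr3 itself. Most of that sum was Nkg7, between 1.67 and 2.69 CPM. Only 2 of the 7 passed the filter on low counts, and Ncr1 had at most 3 counts in each library.

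Ccrl2, an atypical receptor that binds chemerin without signalling through G proteins, had 5.07 and 4.35 CPM in PARP1 WT and 6.50 and 5.65 CPM in PARP2 WT. The groups did not overlap, with a log2 fold change of 0.37 (SE 0.178, adjusted p = 0.300 in edgeR's quasi-likelihood test). It had 3.75 and 4.80 CPM in PARP1CKO and 7.80 and 5.78 CPM in PARP2CKO. All 4 libraries of the PARP2 line were above all 4 of the PARP1 line. Markers of other cell types differed between the WT groups too. All 5 monocyte, all 6 macrophage and all 4 granulocyte progenitor markers were higher in PARP2 WT. Of these 1, 1 and 2 passed the adjusted threshold, beside 3.16% of all genes. All 5 basophil and mast cell markers were lower there, as was Ccr3, and none of them passed.

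PARP2CKO was also compared with PARP1CKO, which shares no library with the comparison of the WT groups. This comparison was added after the values were seen. In it 3 of the 9 passed the adjusted threshold, beside 10.3% of all genes, with Ccr7 and Cxcr2 lower and Ccrl2 higher in PARP2CKO. The log2 fold changes were -1.27 (SE 0.330, adjusted p = 0.0433) for Ccr7, -1.05 (SE 0.125, adjusted p = 0.00203) for Cxcr2 and 0.68 (SE 0.177, adjusted p = 0.0444) for Ccrl2, all in edgeR's quasi-likelihood test. In the knockouts the line difference includes the difference of the knockout effects, which was -0.64 for Cxcr2, 0.30 for Ccrl2 and 0.19 for Ccr7.

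Cell type markers also differed in the same comparison, some lists in the direction of a receptor and others mixed. Of the 9 neutrophil markers 2 passed, Retnlg and the granule protease Mmp9, both lower in PARP2CKO with Cxcr2, while of the whole list 3 had higher and 6 lower values (median log2 fold change -0.06). Retnlg was 17.8 ± 0.491 CPM (SD, n = 2) in PARP1CKO and 7.43 ± 0.230 CPM in PARP2CKO, beside 19.7 ± 0.403 CPM in PARP1 WT and 11.4 ± 2.22 CPM in PARP2 WT. Mmp9 was between 46.7 and 56.2 CPM in the 4 libraries of the PARP1 line and between 21.5 and 32.5 CPM in those of the PARP2 line. These 2 also passed between the WT groups, beside 3.16% of all genes, and there 4 of the 9 had higher and 5 lower values. The sums of the neutrophil list, which its most abundant members S100a9 and Ngp lead, overlapped between the lines. In the direction of Ccrl2, all 5 monocyte markers (3 called), all 6 macrophage markers (2 called) and all 4 granulocyte progenitor markers (3 called) were higher in PARP2CKO. All 5 basophil and mast cell markers were lower (3 called). All 4 B cell markers were called lower, in the direction of Ccr7, with a median log2 fold change of -2.03. Of the 7 dendritic cell markers, 2 were higher (1 called) and 5 lower (1 called). Of all genes, 10.3% were called in this comparison. The part of these cells in the values of Ccr7, Cxcr2 and Ccrl2 was not tested.

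With both groups of each line in 1 contrast, also added after the values were seen, the same 3 receptors passed, beside 16.4% of all genes. Their log2 fold changes in edgeR's quasi-likelihood test were -1.37 for Ccr7 (SE 0.235, adjusted p = 0.00610), -0.73 for Cxcr2 (SE 0.0876, adjusted p = 0.00122) and 0.53 for Ccrl2 (SE 0.126, adjusted p = 0.0228). These 3 were also the receptors whose 4 libraries of one line did not overlap the 4 of the other, as in 20.4% of all genes. Ccr1, Ccr2 and Cxcr4 had log2 fold changes of 0.16, 0.13 and 0.01 there, with 95% intervals that included 0. Here 3 of the 5 monocyte, 4 of the 6 macrophage and all 4 granulocyte progenitor markers passed as higher in the PARP2 line. All 5 basophil and mast cell markers passed as lower, and so did all 4 B cell markers.

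**Figure D4:**
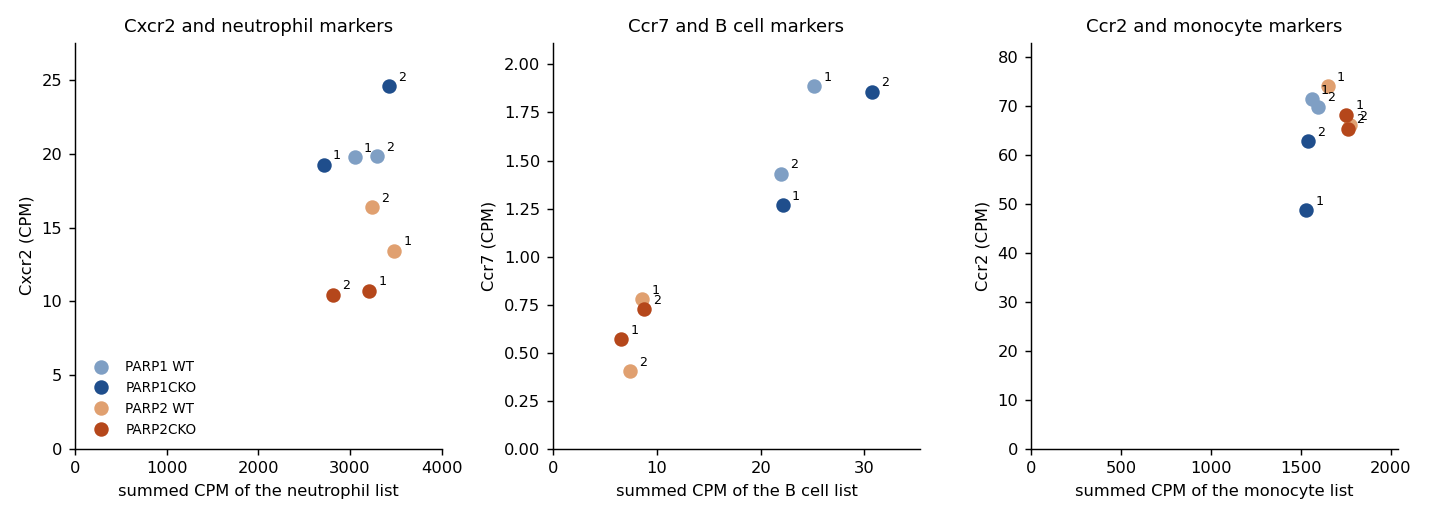
CPM of 3 receptors against the summed CPM of a marker list in each library, numbered by replicate and coloured by group; all axes start at 0. The PARP1 and PARP2 lines separate on both axes for Ccr7 and the B cell list, and on the Cxcr2 axis but not in the neutrophil sum, although Retnlg and Mmp9 of that list were lower in the PARP2 line. Ccr2 and the monocyte sum, most of which is Csf1r, are both lowest in the 2 PARP1CKO libraries.

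Of the 21 ligands listed for these receptors, chemokines and chemerin (Rarres2), 16 were tested and 5, Ccl11, Ccl19, Ccl21a, Rarres2 and Cxcl9, had at most 5 counts in any library. In PARP2CKO 2 of the 16 passed the adjusted threshold, both lower and both ligands of Ccr1, and 3 had an unadjusted p under 0.05, beside 0.0530% and 4.83% of all genes. The third, Ccl6, also binds Ccr1 and had the widest gap, with 54.1 and 104 CPM in the PARP2 WT libraries and 22.5 and 20.5 CPM in the PARP2CKO libraries (log2 fold change -1.88, SE 0.273, adjusted p = 0.116 in edgeR's quasi-likelihood test). Ccl3 (MIP-1 alpha) stood at 105 and 146 CPM in the PARP2 WT libraries and at 62.5 and 64.0 CPM in the PARP2CKO libraries (log2 fold change -0.99, adjusted p = 0.0465 in edgeR's quasi-likelihood test). Ccl9 stood at 392 and 554 CPM in the PARP2 WT libraries and at 234 and 236 CPM in the PARP2CKO libraries (log2 fold change -1.01, adjusted p = 0.0465 in edgeR's test). Ccr1 itself, at a log2 fold change of 0.02, had no such difference in the same libraries.

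In PARP1CKO none of the 16 ligands passed in edgeR's quasi-likelihood test, and 2 had an unadjusted p under 0.05, beside 11.3% of all genes. Cxcl2, a ligand of Cxcr2, had 3.46 and 2.42 CPM in PARP1 WT and 1.31 and 1.48 CPM in PARP1CKO, with a log2 fold change of -1.07 (SE 0.286, adjusted p = 0.271 in edgeR's test). Cx3cl1, the ligand of Cx3cr1, had between 23 and 44 counts in these 4 libraries and a log2 fold change of -0.85 (SE 0.285). The ligands of Ccr2 included Ccl2, between 391 and 522 CPM, for which the 95% interval included 0 in both knockouts. Cxcl12, which stromal cells rather than myeloid cells secrete, had between 13 and 35 counts per library.

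Of 24 signalling partners shared by the receptors (G proteins, receptor kinases, arrestins, phospholipases, phosphoinositide 3-kinases, RGS proteins, Prex1, Dock2, Rac2 and Nup85), 1 passed the adjusted threshold in PARP1CKO, beside 0.106% of all genes, and none in PARP2CKO, beside 0.0530%, in edgeR's quasi-likelihood test. Rgs1, which ends signalling of inhibitory G proteins, had 144 and 115 CPM in PARP1 WT and 69.2 and 52.8 CPM in PARP1CKO (log2 fold change -1.08, SE 0.138, adjusted p = 0.0355 in edgeR's test). In PARP2 it had 103 and 120 CPM in WT and 103 and 102 CPM in PARP2CKO. At an unadjusted p under 0.05 there were 1 higher and 4 lower in PARP1CKO, Rgs1 included, beside 11.3% of all genes, and 1 higher in PARP2CKO, beside 4.83%. Between the WT groups 1 partner passed, the arrestin Arrb2, beside 3.16% of all genes. It was higher in PARP2 WT (log2 fold change 0.19, adjusted p = 0.0323 in edgeR's test).

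Of the 16 other genes with a symbol of a chemokine or chemerin receptor, 8 were tested. None passed the adjusted threshold in either knockout comparison in edgeR's quasi-likelihood test, and 1 in PARP1CKO and 2 in PARP2CKO had an unadjusted p under 0.05, beside 11.3% and 4.83% of all genes. Between the WT groups 1 of the 8 passed, lower in PARP2 WT, beside 3.16% of all genes. In PARP2CKO against PARP1CKO 1 passed, beside 10.3%, and with both groups of each line 3 passed, beside 16.4%. All of these were lower in the PARP2 line.

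Over the 8 libraries the log2 CPM of Ccr1 and Ccr2 followed each other closely (Pearson's r = 0.95), and so did those of Cxcr4 and Cx3cr1 (r = 0.90). The values of Ccr7 and Cxcr2 had r = 0.74, and those of Ccrl2 and Cxcr3 had r = -0.81. Of the tested genes outside the 9 receptors, those most like Ccr1 were Klf11 (r = 0.949) and Nars2, and those most like Ccr2 were Psma6 (r = 0.957) and Klf11. Endou (r = 0.995) and Oip5 were most like Ccr7, and Aars (r = 0.987) and Slfn8 were most like Cxcr2. Il1a was 1 of the 2 genes most like Ccrl2 (r = 0.963). These are descriptions over 8 libraries that share their line, culture and depth, and genes outside the receptors were chosen from 13197 for the highest value.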

How the data were processed

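Total RNA of 8 IMC cultures, 2 per group, was sequenced as single-end reads. Per the labels and methods, the authors trimmed reads, mapped them to mm10 with TopHat (2.0.12), marked duplicates with Picard (1.127) and counted reads on genes with featureCounts; the deposited values are raw counts. The annotation, the strand setting and the handling of marked duplicates are not given in the sources used here.

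The counts were tested with edgeR 4.0.16 (R 4.3.3, limma 3.58.1): filterByExpr, TMM scaling, a mean for each of the 4 groups and the quasi-likelihood test over all 13197 genes kept, with Benjamini-Hochberg adjustment at 0.05. CPM used TMM-scaled totals, and RPKM the union of exons in GENCODE M21. Tests were checked on simulated data. Replicates of 1 group differed by more than sampling noise (chi-square per gene 8.56 to 12.9). The smallest p that an exact two-sided permutation test of single genes allows with 2 libraries a group is 0.333. No column lay outside the 8 libraries. Figures were drawn with matplotlib 3.10.9.

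Genes named are the 9 receptors, Parp1 and Parp2, up to 3 genes with the smallest p of each list of ligands or signalling partners, and markers. The 2 most alike genes outside the 9 receptors, by Pearson's r, are named too. The receptors and lists were chosen with earlier results of these data known. Which markers to name was chosen after their values were seen. They were Itgam, Ly6c1, Ly6c2, Csf1r, F13a1, Chil3, Retnlg, Mmp9, S100a9, Ngp, Itgax, Zbtb46, Cd209a, Xcr1, H2-Ab1 and Nkg7. One listed marker is not reported here and enters no sum. Alternatives were DESeq2 1.42.0 and its size factors, the likelihood-ratio test, no filter, at least 1 CPM in 2 libraries, a replicate block, the 4 libraries of a comparison alone and leaving out each library.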

Additional observations from a re-analysis of the deposited data

How the results depend on the processing

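With 2 libraries a group, the depth allowed the low levels of Ccr7 (21 to 84 counts) and Ccr3 (84 to 151 counts) less precision than the others. Over all alternatives 36 receptor results gave 450 values, of which 397 kept their direction and their side of the threshold. Another 12 passed the threshold where the reported fit did not, and 41 changed sign, 32 of them with a library left out. The 450 include a crossed pairing and 2 line contrasts, PARP2CKO against PARP1CKO and both groups of each line. These contrasts, set beside the WT groups, were added after the values were seen and are other comparisons, not other processing. No receptor passed in a knockout comparison, nor in the difference of the effects, under any alternative.

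Between the WT groups 2 receptors, Ccr7 and Cxcr2, passed with DESeq2, with the likelihood-ratio test and without a filter. In each of the added contrasts, PARP2CKO against PARP1CKO and both groups of each line, 3 passed, these and Ccrl2. The count of all genes called for PARP1CKO was 14, and 86 with DESeq2, 146 with the likelihood-ratio test and 101 without a filter. For PARP2CKO it was 7, and 27, 39 and 26. For the difference of the effects it was 2, and 45, 72 and 61. Between the WT groups it was 417, and 551 with DESeq2, 910 with the likelihood-ratio test and 872 without a filter. In the added contrasts it was 1363 for PARP2CKO against PARP1CKO and 2164 with both groups of each line. Leaving out each library in turn gave 1 to 34 genes for PARP1CKO, 6 to 19 for PARP2CKO, 1 to 16 for the difference and 85 to 319 between the WT groups. The cause was not tested.

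The difference of the effects for Cx3cr1, 0.0001 in the reported fit, was -0.0043 with the likelihood-ratio test, -1.4e-05 without a filter, -0.00066 with at least 1 CPM in 2 libraries and -0.0059 with the replicate block. Between the lines, Ccr1 (-0.01 in the WT groups) was 0.32 in PARP2CKO against PARP1CKO and 0.16 with both groups, Ccr2 was 0.26 and 0.13, and Cxcr4 was -0.0053 in PARP2CKO against PARP1CKO.

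The sign of a log2 fold change depended on a single library for these results, given as the lowest and highest value with a library left out. In PARP1CKO these were Ccr3 (-0.39 and 0.28), Ccr7 (-0.38 and 0.17), Cxcr2 (-0.042 and 0.31), Cxcr3 (-0.33 and 0.10), Cxcr4 (-0.15 and 0.053) and Ccrl2 (-0.32 and 0.033). In PARP2CKO they were Ccr1 (-0.10 and 0.12), Ccr2 (-0.15 and 0.015), Ccr7 (-0.27 and 0.67), Cxcr3 (-0.0084 and 0.19), Cxcr4 (-0.21 and 0.033) and Ccrl2 (-0.074 and 0.36). For the difference they were Ccr7 (-0.19 and 0.75), Cxcr3 (-0.010 and 0.43), Cxcr4 (-0.16 and 0.081) and Cx3cr1 (-0.25 and 0.24). Between the WT groups they were Ccr1 (-0.088 and 0.061), Ccr2 (-0.094 and 0.067) and Cxcr4 (-0.057 and 0.10). With the sign kept, values moved by over 1.5 times for other results. In PARP1CKO these were Ccr1 (-0.47 and -0.17), Ccr2 (-0.54 and -0.17) and Cx3cr1 (-0.48 and -0.025). In PARP2CKO they were Ccr3 (0.17 and 0.49) and Cx3cr1 (-0.49 and -0.033). For the difference they were Ccr1 (0.19 and 0.49), Ccr2 (0.10 and 0.47), Ccr3 (0.049 and 0.72) and Ccrl2 (0.065 and 0.50). Between the WT groups they were Cxcr2 (-0.56 and -0.28) and Cx3cr1 (0.047 and 0.21).

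Libraries with the same replicate number correlated in their deviations from the group means at -0.13 to 0.15, so the numbers were not taken to pair the samples. With the replicate number as a block, 14, 6, 3 and 315 genes were called in the PARP1CKO, PARP2CKO, difference and WT comparisons. With the crossed pairing of PARP1 WT and PARP1CKO, added after seeing the data, 20 genes were called.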
